A study of Drosophila melanogaster with 10 samples.

Results

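Cell cycle genes were followed in Drosophila melanogaster embryos with and without ionizing radiation, in wild-type embryos and in embryos of a p53 mutant strain. The list held 44 genes of cell cycle control, DNA replication and mitosis. For each gene the probe set that the array's annotation assigned to its symbol was taken, and where a gene had several, the probe set with the highest mean signal over the 10 arrays. This gave 33 measured genes of the 44. CycA, stg, Cdk1, Wee1, Myt1, polo, aurA, dap, BubR1, pav and Mcm7 had no probe set under a single symbol and were not analysed here. Of the 33 measured genes 32 had a mean signal above the filter of 53.4 arbitrary units. The exception was CycJ, an early-embryo cyclin, whose signal was 65.8 and 49.7 in yw, 3.1 to 23.8 in w1118 and 3.3 to 24.5 in the mutant.

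RNA came from whole embryos, about a gram of them per sample, laid within a 2.5 h window and then aged for 2.5 h. They were given 40 Gy of gamma radiation or handled without it and left for 1.5 h before collection. Wild-type (WT) embryos were of the yw strain (1 control and 1 irradiated array) or the w1118 strain (2 of each), and p53 mutant embryos were of the Dmp53NS strain (2 of each), with 1 biotin-labelled sample per Affymetrix DrosGenome1 array. Each control array and the irradiated array of the same strain and replicate number form a set, so that there are 5 sets. The sources used here do not describe the Dmp53NS allele or the strain it was made in, and mutation and strain background cannot be told apart. The yw set was hybridized on day 1, the first w1118 and mutant sets together on day 2, and the second ones on day 3. The eIF-4a control, whose ratio of 3′ to 5′ signal rises when RNA is degraded, had a ratio of 12.2 for irradiated embryos of w1118 replicate 2, 5.92 for control embryos of mutant replicate 2, and 1.56 to 3.13 on the remaining arrays. Patterning genes of the embryo gave a signal on every array, among them sna at 982.5 to 3209. In whole embryos fewer cells that express a gene and less RNA per cell cannot be told apart.

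The members work at successive steps of the cycle. Cyclin E with Cdk2, and cyclin D with Cdk4, drive entry into S phase through the E2f1 and Dp transcription factor, which Rbf restrains. The origin recognition complex (Orc1, Orc2, Orc5) and dup, the fly Cdt1, load the MCM helicase (Mcm2, Mcm3, dpa, Mcm5, Mcm6) on DNA, and PCNA is the clamp that holds the polymerase. B-type cyclins drive mitosis, the passenger complex of aurB, Incenp and borr corrects chromosome attachment, Bub1 and mad2 delay anaphase, and the anaphase-promoting complex (Cdc16, Cdc23, Cdc27), activated by fzy or fzr, marks securin (pim) and cyclins for destruction. In fly embryos the first divisions run on maternal RNA and protein, and later divisions come under zygotic control as maternal transcripts are cleared.

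Irradiation gave no member a change that passed the test in WT embryos. Limma called 0 of 32 members with an adjusted p under 0.05, against 0.239% of all 8379 probe sets (20, each of them higher). At an unadjusted p under 0.05 there were 3 members, Orc1, Dp and thr, while 8.15% of all probe sets lay under that value. The smallest adjusted p of a member was 0.460. The median change over the 32 members was -0.04 log2, beside -0.01 log2 over all probe sets, and 95% intervals of 30 of the 32 members lay within 1 log2 of no change. Single sets ranged from -0.81 to 1.69 log2. Of the members 6 were higher in all 3 WT sets and 7 were lower in all 3, where 15.4% and 15.9% of all probe sets were.

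The 10 replication genes had a median change of -0.01 log2 in irradiated WT embryos, with 5 above and 5 below 0. Orc1, the largest subunit of the origin recognition complex, had signals of 237 and 322 in yw, 349, 528, 304 and 475 in w1118 and 511, 493, 326 and 530.4 in the mutant, each list giving the control before the irradiated array of a set. Its irradiated array was the higher in every set but the first mutant set, with changes of 0.42, 0.58 and 0.62 log2 in the WT sets, -0.05 for mutant replicate 1 and 0.68 for mutant replicate 2. The fitted WT change of 0.54 log2, SE 0.25, adjusted p = 0.599 did not pass. The licensing factor gene dup gave 1199 and 808 in yw, 1452, 1386, 957 and 721 in w1118 and 2199, 1960.4, 1141 and 1249.6 in the mutant, with control above irradiated signal in all 3 WT sets and in the first mutant set (-0.34 log2, SE 0.21, adjusted p = 0.709 in WT). PCNA gave 5304 and 7115 in yw, 6688, 6944, 5581 and 6748 in w1118 and 3954, 6007, 6451 and 4406 in the mutant, and its WT change was 0.25 log2, SE 0.20, adjusted p = 0.828. For Mcm2, a subunit of the replicative helicase, signals were 1165 and 1301 in yw, 1681, 1955, 1469.7 and 1444 in w1118 and 963, 1372, 1160.3 and 729 in the mutant, so that control and irradiated arrays overlapped in every strain but yw, which has 1 array of each. Its WT change was 0.12 log2, SE 0.22, adjusted p = 0.960. The class median was 0.07 log2 in the yw set, 0.12 and -0.25 in the w1118 sets, 0.57 for mutant replicate 1 and -0.26 for mutant replicate 2. Over all probe sets the medians were -0.003, 0.004, -0.01, 0.12 and -0.05 log2 in the same order. For these 10 genes both w1118 and mutant embryos thus had the higher value on day 2 and the lower on day 3. In 31 other replication genes, listed apart from the members, the w1118 medians were close, at 0.13 and 0.11 log2. Their mutant medians were 0.57 and 0.01.

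Among 7 genes of G1 to S control the WT median was -0.13 log2 and 6 were below 0. Dp, the partner of E2f1, was lower on the irradiated array of all 5 sets, with changes of -0.50, -0.31, -0.58, -0.40 and -0.41 log2 in the order yw, w1118 and mutant. Its signals were 1081 and 761 in yw, 1642, 1326, 1072 and 711 in w1118 and 1511, 1138, 1083 and 810.4 in the mutant. Neither the WT value (-0.46 log2, SE 0.20, adjusted p = 0.576) nor the mutant value (-0.41 log2, 95% interval -0.93 to 0.11) passed, and the count of sets was noticed after the values were seen. E2f1 gave 793 and 496 in yw, 1266, 1257, 685 and 426 in w1118 and 1229.8, 1131, 305 and 400.3 in the mutant. Day 3 signals of E2f1 lay below day 2 signals in w1118 and in the mutant, and its WT change of -0.45 log2, SE 0.23, adjusted p = 0.643 did not pass. CycE, whose product activates Cdk2, gave 639 and 712 in yw, 1011, 1158, 1317 and 1806 in w1118 and 1235, 1127, 1275 and 1022 in the mutant. CycE was higher after irradiation in the 3 WT sets and lower in both mutant sets (0.27 log2, SE 0.20, adjusted p = 0.812 in WT, and a difference between genotypes of 0.49 log2, SE 0.32, adjusted p = 0.9998).

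Mitotic genes had a WT median of 0.03 log2, with 9 of 15 above 0. The largest fitted WT change of any member was that of thr, which encodes a partner subunit of separase and is bound by pim (0.70 log2, SE 0.27, adjusted p = 0.460), which did not pass. Its signals were 284.6 and 367.1 in yw, 572.2, 597.7, 180.1 and 613.9 in w1118 and 1045.9, 799.8, 790.9 and 614.3 in the mutant. In the second w1118 set the change was 1.69 log2, against 0.35 in yw and 0.06 in the first w1118 set, and the irradiated embryos of that second set are those with the eIF-4a ratio of 12.2. The part of RNA quality in that value was not tested. In the same set mad2 had a change of 1.06 log2. These were the only 2 members with a change of 1 log2 or more in any set. CycB, a mitotic cyclin gene, was lower on the irradiated array of all 5 sets, with signals of 7323 and 5696 in yw, 8396, 7588, 6949 and 5485 in w1118 and 11621, 10575, 8045 and 7666 in the mutant and a WT change of -0.28 log2, SE 0.17, adjusted p = 0.709. As for Dp, that count was noticed after the values were seen, and no share over all probe sets was computed for it. The replication gene Mcm6 was higher in all 5 sets, by 0.04, 0.01, 0.25, 0.63 and 0.16 log2 in the order yw, w1118 and mutant. No share over all probe sets was computed for this count either. CycB3 gave 5613 and 3915 in yw, 7405, 5719.5, 4539 and 4566 in w1118 and 6843, 6567, 5769 and 5269 in the mutant, with a WT change of -0.29 log2, SE 0.18, adjusted p = 0.718. Incenp, of the passenger complex, had a WT change of -0.37 log2, SE 0.20, adjusted p = 0.659.

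**Figure D1:**
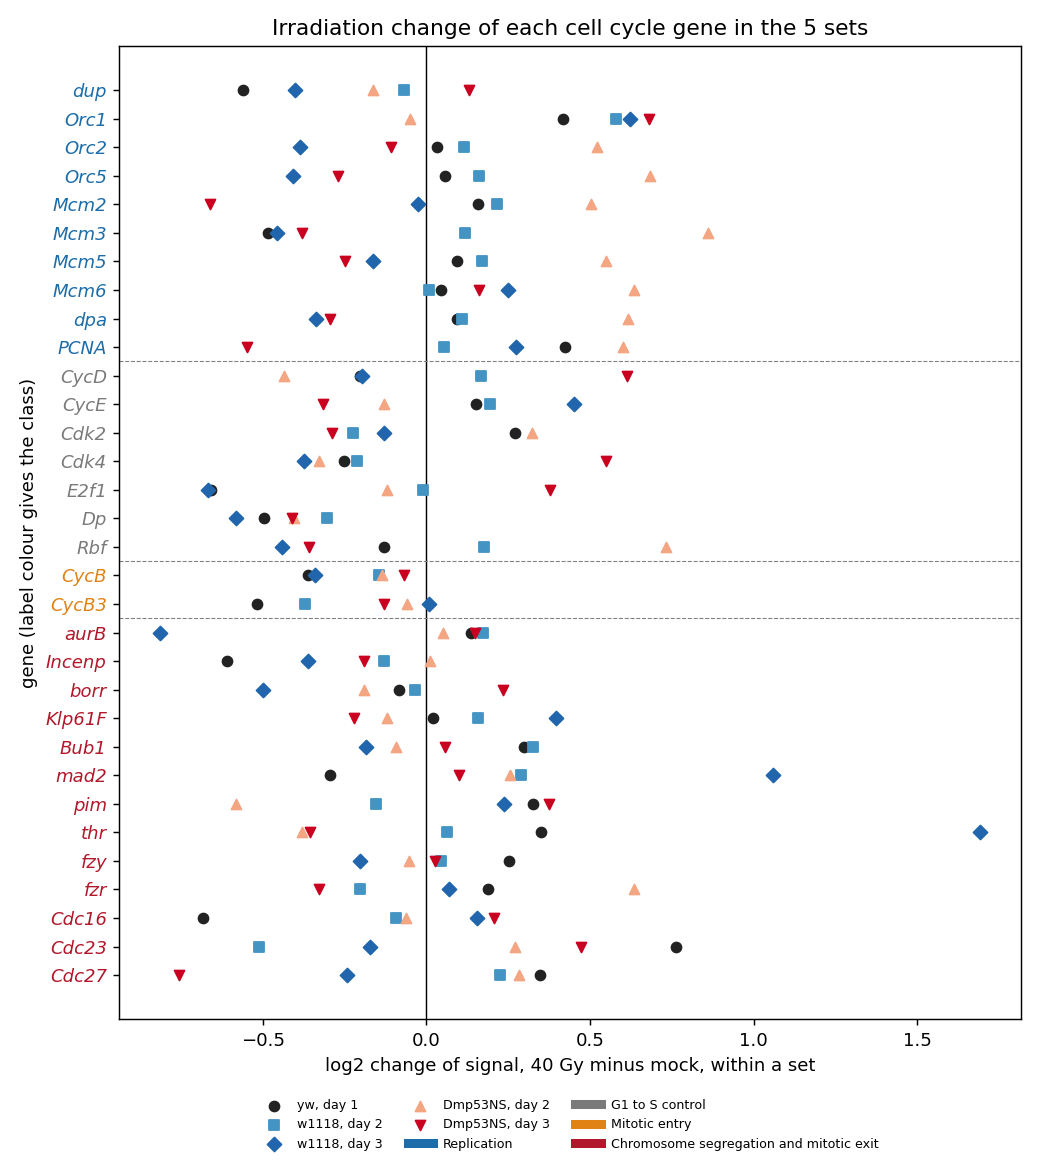
Each point is the log2 change of a gene's signal, irradiated minus control, within a set, for 32 cell cycle genes grouped by class, with a marker for each of the 5 sets. The points run from -0.81 to 1.69 log2 and the sets differ in sign for most genes, with thr (1.69) and mad2 (1.06) of the second w1118 set the farthest to the right.

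In mutant embryos limma called 0 of 32 members as well, and 0% of all probe sets, and it found 0 members and 1.6% of probe sets at an unadjusted p under 0.05. The mutant median over members was 0.05 log2, beside 0.02 over all probe sets. Replication genes were higher on the irradiated array in 8 of 10 cases for replicate 1 and in 3 of 10 for replicate 2. Of all 8379 probe sets 4953 and 3815 were. Over both sets 4 members were higher and 6 lower, where 18.9% and 14.2% of all probe sets were. The contrast of the WT and mutant irradiation effects, tested directly, was called for 0 members and 0.0119% of probe sets. At an unadjusted p under 0.05 it had 1 member, thr (1.07 log2, SE 0.43, adjusted p = 0.9998), against 3.37% of probe sets. Its 95% interval lay within 1 log2 of 0 for 15 members, so a difference of 1 log2 or more lies inside the interval of the other 17. The calls of these 3 comparisons among members stayed at 0 under each alternative run. RnrL, a gene of nucleotide supply on the list of related replication genes, was the only related gene called in WT embryos, among 98 kept (1.13 log2, SE 0.22, adjusted p = 0.0186).

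The comparison of strains gave calls among the members. Compared with the mean of the yw and w1118 strains, mutant embryos had more signal of CycD, pim, mad2 and Bub1 and less of Cdk2, and these were the 5 members limma called. That is 15.6% of 32 members against 20.9% of all probe sets, which is near the background. By direction, 4 were higher, where 10.9% of all probe sets were, and 1 was lower, where 9.95% were. In 5 members, Mcm5, Cdk2, mad2, pim and thr, the 4 mutant arrays did not overlap the 6 WT arrays, where 14.4% of all probe sets did not. The median over all probe sets was itself -0.18 log2, and -0.06 with quantile normalization, so differences are also given relative to it. Relative to it the median was -0.18 log2 for replication genes, 0.51 for mitotic genes and 0.02 for G1 to S genes. Quantile normalization gave -0.33, 0.44 and -0.09. Without the yw set, which had a day of its own, they were -0.30 for replication, 0.25 for mitotic and -0.23 for G1 to S genes. The direction held for replication and mitotic genes under each alternative run, and that of G1 to S genes did not. The 51 related mitosis genes that are not members had a median of -0.10 log2, beside the -0.18 over all probe sets.

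**Figure D2:**
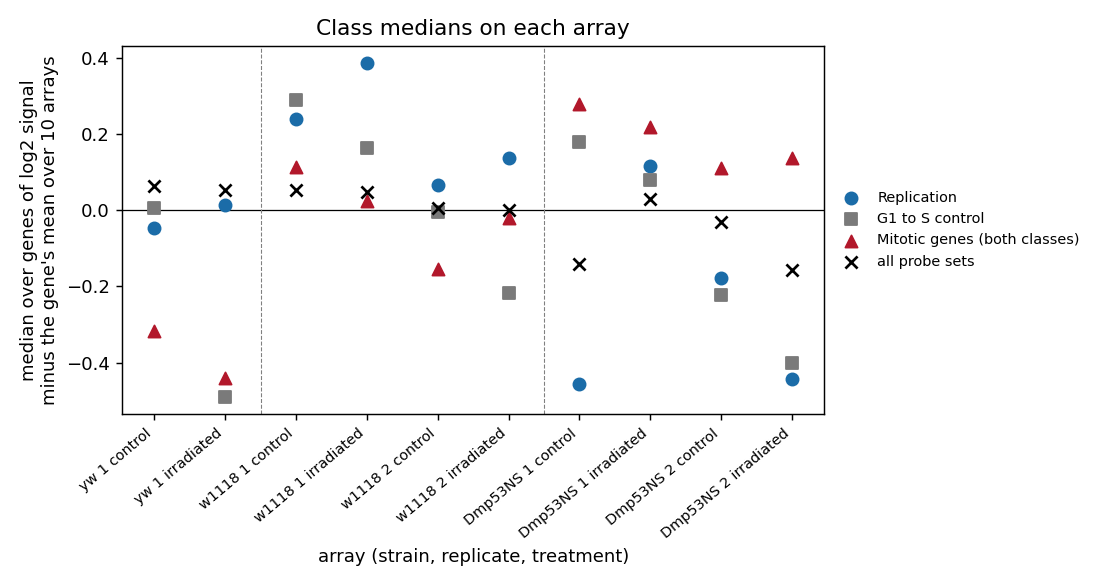
The vertical axis is the median over the genes of a class of the log2 signal minus the same gene's mean over 10 arrays, for each array. Mitotic genes lie above 0 on the 4 mutant arrays and below 0 on both yw arrays, while replication genes lie below 0 on 3 of the 4 mutant arrays and above 0 on the 4 w1118 arrays.

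CycD, whose product with Cdk4 promotes growth and cell cycle entry, had signals of 294 and 254 in yw, 537, 604, 412 and 358 in w1118 and 1267, 934, 562 and 867 in the mutant. The mutant difference was 1.25 log2, SE 0.27, adjusted p = 0.00949, and the lowest mutant value, on day 3, lay below the highest w1118 value, on day 2. Within days it was 0.92 log2 on day 2 and 0.84 on day 3. The securin gene pim, whose product holds back anaphase, gave 398 and 502 in yw, 479.5, 429, 562 and 665 in w1118 and 1028, 682, 1173 and 1525 in the mutant. Every mutant array was above every WT array, with a difference of 1.10 log2, SE 0.26, adjusted p = 0.0140, and 0.86 and 1.11 log2 within days 2 and 3. The checkpoint gene mad2 gave 923 and 750.1 in yw, 661, 810.2, 518 and 1095 in w1118 and 1231, 1474, 1609.9 and 1727 in the mutant. Its mutant and WT arrays did not overlap either, and the difference was 0.92 log2, SE 0.23, adjusted p = 0.0188, with 0.87 and 1.13 log2 within days. For thr, also a gene of anaphase control, the lowest mutant signal of 614.3 was just above the highest WT signal of 613.9. The difference from WT of 1.05 log2, SE 0.37, adjusted p = 0.0617 did not pass. Against w1118 the difference of thr was 0.63 and 1.02 log2 within days. In limma with set means thr passed there (adjusted p = 7.69e-04), as did 41.2% of all probe sets.

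Bub1, a kinase of the spindle checkpoint, gave 21.1 and 29.3 in yw, 117, 150.3, 72.8 and 62.3 in w1118 and 189, 177, 105 and 109 in the mutant. Its mutant difference was 1.23 log2, SE 0.33, adjusted p = 0.0238, and 0.42 and 0.57 log2 within days 2 and 3. The yw arrays were below all others and within either shared day each mutant array was above both w1118 arrays. Cdk2, the partner of CycE, gave 2654 and 3203 in yw, 2106, 1801, 1511 and 1380.0 in w1118 and 996, 1249, 1294 and 1057 in the mutant. The mutant arrays lay below all WT arrays, with a difference of -0.94 log2, SE 0.20, adjusted p = 0.00738, -0.80 log2 on day 2 and -0.30 on day 3. Without the yw set the call was kept only for mad2, where 5.9% of all probe sets were called, and the values were 0.50 log2 for Bub1 and -0.55 for Cdk2. The calls of Bub1 and CycD were lost without the first mutant set and those of mad2 and pim without the second. None of the 5 passed this comparison with the WT mean when each set entered as a single mean value, where 2.26% of all probe sets passed. The same held with unirradiated arrays alone, where 1.04% of all probe sets passed. Against w1118 within days, with set means as described below, limma called mad2, pim, CycD and Cdk2 but not Bub1. Adjusted p in this order was 5.21e-05, 1.06e-04, 2.70e-04, 0.00468 and 0.0857, where 41.2% of all probe sets were called. With unirradiated arrays alone that comparison called mad2, pim and CycD, where 21.4% of all probe sets were called.

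**Figure D3:**
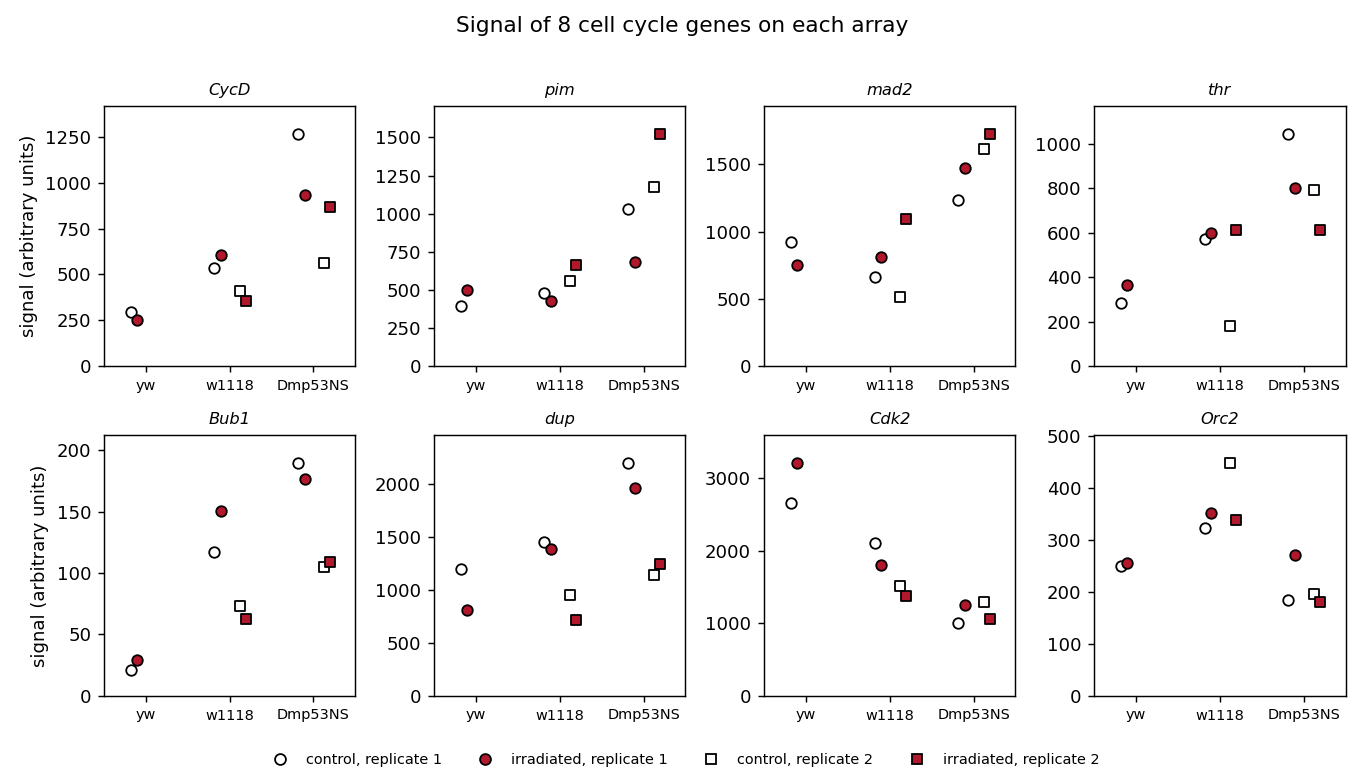
Signal in arbitrary units on each of the 10 arrays for 8 cell cycle genes, by strain, with replicates 1 and 2 as circles and squares, and control open and irradiated filled. The mutant arrays lie above all WT arrays for pim, mad2 and thr, and below all WT arrays for Cdk2.

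The w1118 and mutant sets shared hybridization days, so the difference between these strains could be read within days. All 10 replication genes had the same sign on both days: 7 were lower in the mutant (Orc2, Orc5, Mcm2, Mcm3, dpa, Mcm5 and PCNA) and 3 were higher (dup, Orc1 and Mcm6). Over all members 15 were lower on both days and 11 higher, where 46.8% and 32.7% of all probe sets were. The replication median was -0.52 log2 on day 2 and -0.28 on day 3, beside -0.11 and -0.10 over all probe sets. Mitotic genes had medians of 0.09 and 0.27 log2, and 7 of 15 were higher on both days. Their fitted median over both days was 0.13 log2 and turned to -0.01 with unirradiated arrays alone, beside -0.12 and -0.15 over all probe sets. With each set as a single value, limma called 14 of 32 members (43.8%), against 41.2% of all probe sets. Of these 6 were higher and 8 lower, where 17.9% and 23.2% of all probe sets were. That share is near the background, and the fit has 1 residual degree of freedom, with the spread taken almost wholly from all probe sets together. The fit with set as a random block called 18 members and 52.9% of probe sets, 7 members higher (21.9% of probe sets) and 11 lower (31%), with an estimated correlation of -0.52 within sets. A negative value is not what a shared set gives. On data simulated with a positive correlation within sets and no day effect, unlike the estimate here, that fit made more false calls than its threshold allows. Leaving out a set from that fit left 1 to 3 calls, and the share over all probe sets fell as well. Those calls were mad2 and pim without the first w1118 set (10.2% of all probe sets) and Cdk2, CycD and mad2 without the second (9.77%). Without mutant replicate 1 they were Orc2, mad2 and pim (14.2%), and without mutant replicate 2 CycD (9.63%). Each such fit rests on a single shared day.

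Among the licensing genes, Orc2 gave 249 and 255 in yw, 323, 351, 448 and 339 in w1118 and 185, 272, 196 and 181 in the mutant, with mutant arrays below w1118 arrays (-0.56 and -0.99 log2 within days, adjusted p = 0.00430 in limma with set means). The yw values lay inside the mutant range. Orc5 gave 429 and 446 in yw, 569, 637, 575 and 430.1 in w1118 and 298, 487, 381 and 313 in the mutant, with an overlap between strains (-0.64 and -0.51 log2, adjusted p = 0.00826). The opposite direction was seen for dup, at 0.54 and 0.52 log2 (adjusted p = 0.00214), whose day 2 signals were above its day 3 signals in both strains.

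Of the helicase subunits, Mcm2 (-0.65 and -0.66 log2 within days, adjusted p = 5.25e-04) and Mcm5 (-0.63 and -0.60 log2, adjusted p = 5.92e-04) were lower in the mutant, with no overlap of the 4 mutant and 4 w1118 arrays. Such separation was found for 8 members (Orc2, Mcm2, Mcm5, Cdk2, mad2, pim, thr and Cdc16), or 3 of 10 replication genes, against 21.9% of all probe sets. Mcm5 had signals of 1493 and 1595 in yw, 1629.6, 1836, 2019.5 and 1802 in w1118 and 915, 1344, 1364 and 1144 in the mutant. For dpa, the fly Mcm4, they were 1523 and 1624 in yw, 1926, 2079.6, 1519.7 and 1199 in w1118 and 993, 1529, 1212 and 984 in the mutant, and mutant and w1118 arrays overlapped, within day 3 as well (-0.69 and -0.30 log2 within days, adjusted p = 0.00581). Mcm3 gave 965 and 686 in yw, 1133, 1231, 839 and 607 in w1118 and 660.4, 1210.1, 686 and 523 in the mutant and did not pass (-0.40 and -0.25 log2, adjusted p = 0.0589). Mcm6, with signals of 462 to 725 in the mutant and 497 to 594 in w1118, had differences of 0.15 and 0.01 log2 and did not pass (adjusted p = 0.693). PCNA had differences of -0.48 and -0.20 log2 within days (adjusted p = 0.00482). Its irradiated mutant array of day 2 and its control mutant array of day 3 lay inside the w1118 range.

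In G1 to S control, Rbf, the fly retinoblastoma protein gene, gave 179 and 163 in yw, 242, 276, 284 and 205 in w1118 and 139, 241, 165 and 126 in the mutant and was lower in the mutant within days (-0.46 and -0.69 log2, adjusted p = 0.0248), with an overlap between strains. Cdk4 gave 623 and 521 in yw, 505, 435, 593 and 454 in w1118 and 456, 361, 300.3 and 446 in the mutant and did not pass with set means (adjusted p = 0.0933). E2f1 (-0.10 and -0.61 log2, adjusted p = 0.0746) did not pass with set means either. CycE (0.12 and -0.43 log2) and Dp (-0.17 and 0.10 log2) had opposite signs on the 2 days. In mitosis, CycB was higher in the mutant by 0.47 and 0.35 log2 (adjusted p = 3.76e-04). Within each day every mutant array of CycB was above both w1118 arrays. The activator gene fzy and the passenger genes aurB, Incenp and borr had differences of -0.01, -0.13, -0.09 and -0.25 log2 on day 2 and -0.19, 0.32, -0.06 and 0.09 on day 3, and none passed. The motor gene Klp61F (-0.10 and -0.37 log2), the activator gene fzr (0.09 and -0.43) and the subunit genes Cdc16 (0.28 and 0.27), Cdc23 (0.46 and -0.20) and Cdc27 (-0.09 and -0.54) did not pass either. Cdc16 signals, at 259.8 to 313 in the mutant and 217 to 257 in w1118, did not overlap, by a narrow margin.

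**Figure D4:**
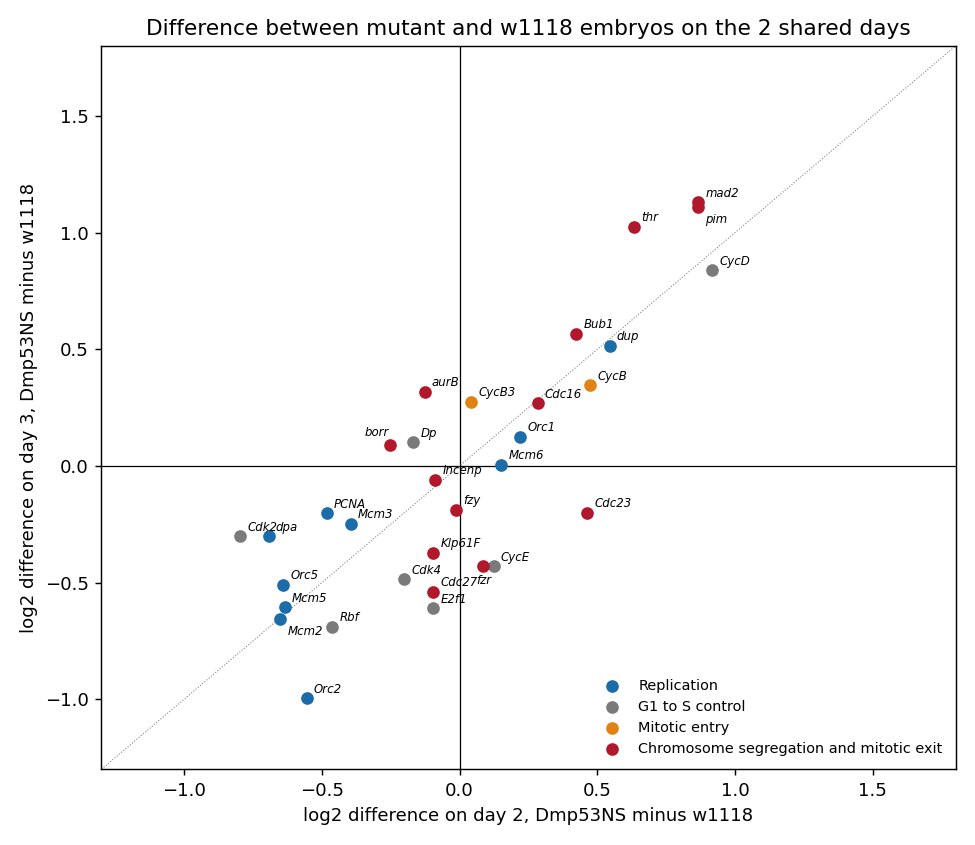
Each point is a cell cycle gene, with the log2 difference between mutant and w1118 embryos on day 2 across and on day 3 upward, each from the mean of the control and irradiated array, coloured by class. The 7 replication genes that are lower on both days lie to the lower left of 0, while mad2, pim, thr, CycD, Bub1, dup and CycB lie farthest to the upper right.

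Markers of the embryo's stage differed between the same strains. Of maternal transcripts that fall in early development, 12 of 14 listed were measured. Apart from the member CycB3, the summed signal of the other 11 was 5009 to 11104 on the mutant arrays, 2084 to 3424 on the w1118 arrays and 1980 to 2010 on the yw arrays. Such a sum follows its brightest genes and does not show that all 11 rose. The gene smg alone gave 1242 to 5845 in the mutant, 143.8 to 931 in w1118 and 125 to 245 in yw. Limma called 4 of the 9 kept as higher in the mutant than in WT (bcd, smg, twe and plu) and 0 as lower. Over all probe sets the shares were 10.9% higher and 9.95% lower. Without a call, gcl (-0.44 log2), pgc (-0.27) and gnu (-0.82) lay lower in the mutant than in WT. Against w1118 within days, limma called 6 as higher and 3 as lower, gcl (-0.67 log2), pgc (-0.41) and gnu (-0.52). That fit called 52.9% of all probe sets, 21.9% higher and 31% lower. The gene twe, which encodes the maternal Cdc25 phosphatase and is also on the list of related mitosis genes, gave 87.9 and 71.3 in yw, 105, 148, 71.7 and 64.9 in w1118 and 1225, 568, 374 and 810.0 in the mutant (2.79 log2, SE 0.38, adjusted p = 0.00109). The 9 measured patterning genes summed to 2339 to 3629 in the mutant, 3989.5 to 5010.3 in w1118 and 5395 to 5687 in yw. Of them sna, a mesoderm gene, was called lower in the mutant. Of later differentiation genes (4 kept), blood cell genes (3 kept) and germ line genes (4 kept), limma called 1, the germ line gene zpg, as lower in the mutant than in WT. The fit within days called 7 of 9 patterning genes, 2 of 4 later differentiation genes and 3 of 3 blood cell genes as lower, 2 germ line genes as higher and 1 as lower, and 1 of 5 adult ovary or chorion genes in each direction. The part of embryo stage in the differences of cell cycle genes was not tested.

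Of related cell cycle genes, listed apart from the members, limma called 13 of 98 in the mutant against WT, or 13.3%, beside 20.9% of all probe sets. Of 31 other replication genes 2 were higher, Mcm10 (1.49 log2) and Cdc6 (0.77), which act in licensing and helicase activation. The 3 lower ones were the polymerase gene PolE1 (-0.66), the clamp loader gene RfC4 (-0.80) and the histone chaperone gene asf1 (-0.76). Their median was -0.25 log2, beside -0.18 over all probe sets. Of 51 other mitosis genes twe, san (1.30), mr (1.03), gwl (1.02) and Nuf2 (0.82) were higher and endos (-0.70) was lower, with a median of -0.10. Against w1118 within days their medians were -0.16 log2 on day 2 and -0.18 on day 3. Over all probe sets these were -0.11 and -0.10, and for the 15 mitotic members 0.09 and 0.27. The direction of the mitotic members within days was thus not shared by this list. The gene gwl encodes the Greatwall kinase and endos its substrate, mr is a subunit of the anaphase-promoting complex and Nuf2 a kinetochore protein. Of 16 other G1 to S genes Cul1 (0.76) was higher and E2f2 (-0.66), a repressor of the E2F family, lower, with a median of -0.06. Between yw and w1118 5 of the 98 were called, or 5.1% beside 8.63% of all probe sets, all lower in yw (Prim1, RecQ4, RnrL, mr and Sas-4).

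Between the WT strains, limma called 3 members as lower in yw than in w1118 (Cdc27, fzy and Incenp) and 0 as higher, which is 9.38% of 32 members against 8.63% of all probe sets (4.49% higher and 4.14% lower). The strains also differ in hybridization day, chip lot and fluidics protocol, so strain and day cannot be told apart. With 1 yw set the spread between yw sets is not measured, and the p-values below take it from the other strains. Cdc27, a subunit of the anaphase-promoting complex, gave 26.5 and 37.7 in yw, 293, 346, 220.0 and 184 in w1118 and 268, 329, 178 and 99.7 in the mutant, a difference of -2.53 log2, SE 0.46, adjusted p = 0.0102. Both yw arrays lay under the filter value and the other 8 above it. Its partner subunits Cdc16 (-0.12 log2) and Cdc23 (0.99 log2) did not pass. The activator gene fzy gave 894 and 1069 in yw, 1629, 1682, 2051 and 1781 in w1118 and 1673, 1612, 1661 and 1691 in the mutant, a difference of -0.85 log2, SE 0.22, adjusted p = 0.0350, and Incenp gave 1427 and 929.5 in yw, 2011, 1836, 2456 and 1907 in w1118 and 1798, 1812, 2221 and 1943 in the mutant, a difference of -0.82 log2, SE 0.23, adjusted p = 0.0470. In both cases the yw arrays were the lowest of the 10. Bub1 (-1.47 log2, SE 0.44, adjusted p = 0.0569) and CycE (-0.92 log2, SE 0.28, adjusted p = 0.0578) did not pass, although both yw arrays were below the other 8. In all, 9 members had both yw arrays outside the range of the other 8, where 31.5% of probe sets did. The call of fzy was lost without the second w1118 set, and that of Incenp without either w1118 set or without the second mutant set. Both also failed to pass without the variance trend (adjusted p = 0.0638 for fzy and 0.0853 for Incenp), and Incenp with quantile normalization (0.0677), a pseudocount of 1 (0.0505) or the stricter filter (0.0678), so that it kept its call in 4 of 13 alternatives. With set means or with unirradiated arrays alone yw has a single value, so those fits cannot decide whether these calls hold. Signals of adult ovary or chorion genes, 10 of 11 listed, summed to 1191 to 1750 on the yw arrays, 597.5 to 723 on the w1118 arrays and 517 to 632 on the mutant arrays, and their part in these values was not tested. Of the 5 kept, 0 were called between yw and w1118, and Cp18 and Cp36 were called lower in the mutant than in WT.

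The passenger complex gene borr was the only member with a second probe set. The brighter one gave 4280.1 and 4036 in yw, 4048, 3954, 4648 and 3285 in w1118 and 3586, 3141, 3833 and 4506 in the mutant, and it did not pass in any comparison. The other gave 1940.1 and 2938 in yw, 133, 50.7, 208 and 144 in w1118 and 94.3, 103, 76.8 and 99.2 in the mutant. It was thus far higher on both yw arrays than on any other array (4.14 log2, SE 0.47, adjusted p = 7.13e-04 for yw against w1118) and was called lower in the mutant than in the WT mean (-2.41 log2, SE 0.36, adjusted p = 0.00156), while its mutant difference from w1118 within days was 0.20 log2 on day 2 and -0.88 on day 3. The 2 probe sets of this gene therefore disagree, and the files do not show which part of the transcript either one reads.

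**Figure D5:**
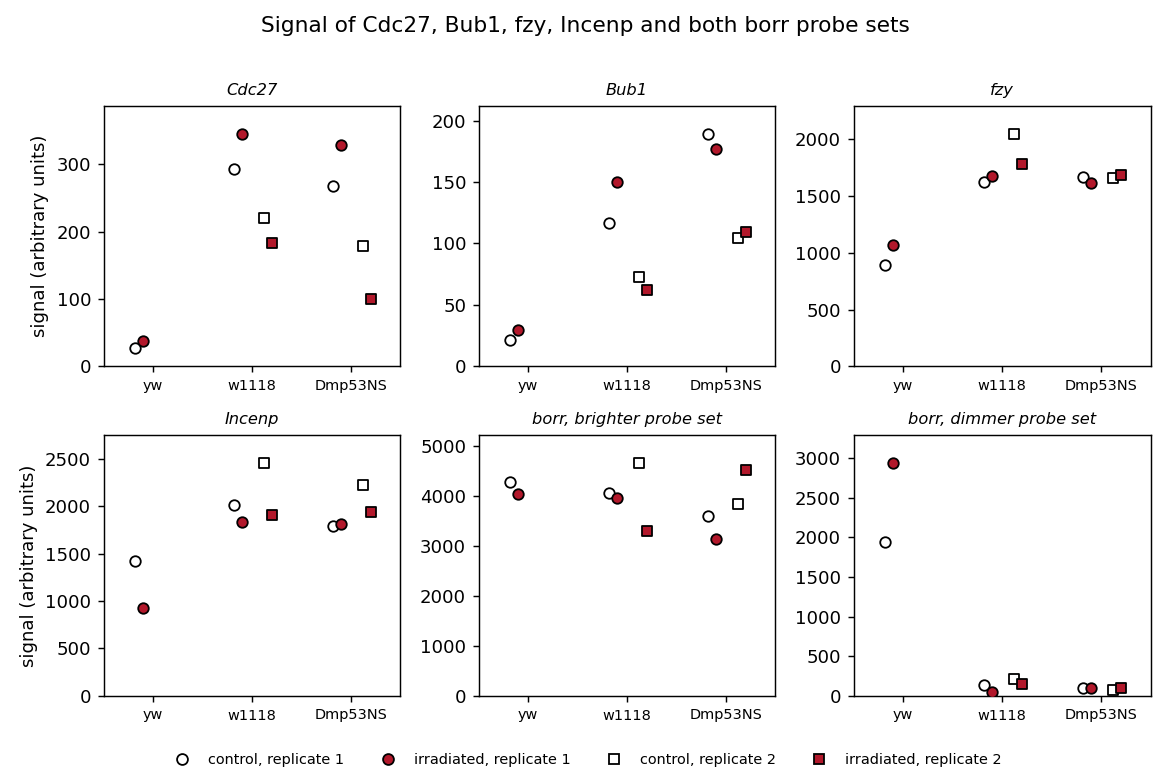
Signal in arbitrary units on each of the 10 arrays for Cdc27, Bub1, fzy, Incenp and both borr probe sets, by strain, with replicates 1 and 2 as circles and squares, and control open and irradiated filled. The yw arrays are the lowest for the first 4 genes, while the second borr probe set reads 1940.1 and 2938 in yw and at most 208 elsewhere.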

How the data were processed

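Total RNA of 10 embryo samples was measured on 10 single-colour arrays. Signal intensity per probe set was deposited by the authors in a single table. The submitters' processing notes name MAS5 but, in the sources used here, neither its version nor detection calls. Trimming 2% from either tail gave every column a mean of 250.04, and no rescaling followed. Run records, also deposited by the authors, supplied hybridization day and chip lot. Of 14010 probe sets 44 controls were left out, and the platform annotation named 1 gene for 12442, several for 327 and none for 1197. Values were taken as log2(signal + 14.6), the 20th percentile of all values, which understates changes of dim genes. The 8379 probe sets whose mean exceeded 53.4, the 40th percentile, were tested.

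Limma 3.58.1 (R 4.3.3, eBayes with a trend) gave the irradiation effects in a model with every set as a fixed block and 3 residual degrees of freedom, since the series describes its control and irradiated arrays as paired. As a check, deviations from group means correlated at 0.60 within w1118 sets and 0.43 within mutant sets, which includes any shared day. The irradiation changes themselves correlated between replicate sets at 0.09 in w1118 and -0.29 in the mutant. Strain contrasts came from a model of strain and irradiation in which set was a random block (correlation 0.19). The comparison within days added day and used the 8 w1118 and mutant arrays. P-values are two-sided and Benjamini-Hochberg adjusted over the 8379 probe sets, with a threshold of 0.05. The series calls its sets biological replicates. Each fit was tested on simulated data, in which genes were independent and days did not differ. The members and lists were chosen with earlier results of these data known. Values on every array are given for members called in any comparison, for a short list of regulators, and for the members of each class with the largest WT changes. Alternatives covered scaling, pseudocount, filter, variance model, block, probe set and sets left out.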

Additional observations from a re-analysis of the deposited data

How the results depend on the processing

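For irradiation in WT, irradiation in the mutant and their difference, the count of called members was 0 under each alternative run, including no replicate block and each set left out. For the mutant against WT the count of 5 (20.9% of all probe sets) became 1 to 9 with a set left out, where 5.9% to 25.6% of all probe sets were called. It became 0 with unirradiated arrays alone or with set means, where 1.04% and 2.26% of all probe sets were called. For the mutant against w1118 within days the count of 18 (52.9% of all probe sets) became 11 with no replicate block (30.2%) and 7 with unirradiated arrays alone (21.4%). With a set left out it became 1 to 3, where 9.63% to 14.2% of all probe sets were called. For yw against w1118 the count of 3 (8.63% of all probe sets) became 7 without the filter (16.8%) and 6 with no replicate block (15.8%). With unirradiated arrays alone or with set means yw has a single value, so neither fit can decide whether a call holds. The set means were added after the data were seen. Leaving out the yw set leaves no yw value and does not touch the comparison within days. No called member changed sign under any alternative. With 10 arrays and few sets per strain, the number of arrays limits what can be called.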
